A study of Mus musculus with 9 samples.

Results

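Livers carrying both a hepatocyte deletion of Tsc1 and the loss of 1 p53 allele were compared with livers carrying the p53 loss alone. The double mutant livers are labelled p53+/-;Tsc1fl/fl;Alb-Cre (3 libraries) and the p53-heterozygous livers p53+/- (3 libraries), all from mice of 320 days. The members were chosen by genotype label, and they are 6 of the 9 libraries of the series. The 3 libraries of Tsc1fl/fl;Alb-Cre livers were not used, and the design text speaks of 6 groups. All 6 libraries share the p53+/- genotype, so the contrast is that of the Tsc1 deletion on this background. Alb-Cre places the recombinase under control of the albumin gene's promoter, so floxed Tsc1 is deleted in hepatocytes and kept in most other liver cells. No p53+/- liver with unrecombined Tsc1fl/fl alleles or with Alb-Cre alone was among the libraries used, so those elements cannot be told apart from the deletion. Whether each library stands for its own animal is not given in the labels. The p-values therefore measure the spread between libraries, which may be partly technical.

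Tsc1 stabilises the complex with Tsc2 that turns off the GTPase Rheb and so holds the kinase mTORC1 in check. mTORC1 is recruited to the lysosome by Rag GTPases when amino acids are plentiful. It raises synthesis of protein, lipid and nucleotides, while the transcription factors TFEB and TFE3 (the MiT/TFE family) make lysosomes and are held in the cytosol by mTORC1 through RagC and RagD. In liver, loss of Tsc1 is known to drive mTORC1 in hepatocytes and, with age, to give liver tumours in mice. p53 is the transcription factor that halts the cycle of damaged cells.

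Per the protocol, RNA was sequenced after removal of ribosomal RNA, although a label names polyA RNA, as single reads of 50 cycles, and 1 value per gene was deposited for each library. Values below are ppm, which is the deposited FPKM (reads scaled by gene length and by the mapped reads of the library) rescaled so that the nuclear protein-coding genes of each library sum to 1000000. They are levels per gene length. The rescaling was needed because the makeup of the libraries differed. Nuclear protein-coding genes held 65.8%, 60.8% and 57.3% of the summed FPKM in the double mutant libraries, against 2.61%, 2.37% and 31.8% in the p53-heterozygous libraries 1, 2 and 3. Mitochondrial genes held 17.5% to 23.4% in the double mutant and 37.5% to 62.9% in the p53-heterozygous libraries. From the smallest steps between values, p53-heterozygous libraries 1 and 2 were estimated to hold 1.05e+06 and 7.11e+05 reads of nuclear coding genes, against 8.34e+06 in library 3 and 1.23e+07 to 1.53e+07 in the double mutant. A single read in a gene of 1 kilobase was then worth 2.57 and 3.66 ppm in p53-heterozygous libraries 1 and 2, 0.35 ppm in library 3 and 0.19 to 0.241 ppm in the double mutant. For genes of about that length, levels of a few ppm in libraries 1 and 2 thus rest on 1 or a few reads, and longer genes have more reads at the same level. p53-heterozygous library 3 also differed in tissue makeup. Its 18 hepatocyte markers summed to 3231 ppm, against 181800 and 207100 ppm in the other p53-heterozygous libraries and 75220 to 96200 ppm in the double mutant. Col1a1, a fibroblast collagen, stood at 1251 ppm in library 3 and at most at 87.6 ppm in the other 5 libraries. The labels call all of them liver, and defining hepatocyte genes such as Alb were found in all 6 libraries, at 705 ppm in library 3 and 30398 ppm or more in every other library. Correlations of log2 levels over nuclear coding genes were 0.965 to 0.967 among the double mutant libraries. They were 0.935 between p53-heterozygous libraries 1 and 2, and 0.811 and 0.797 between library 3 and those 2. Most groups of genes below are therefore also given against p53-heterozygous libraries 1 and 2 and against library 3 separately. In bulk tissue, fewer cells of a type and less RNA per cell cannot be told apart.

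**Figure D1:**
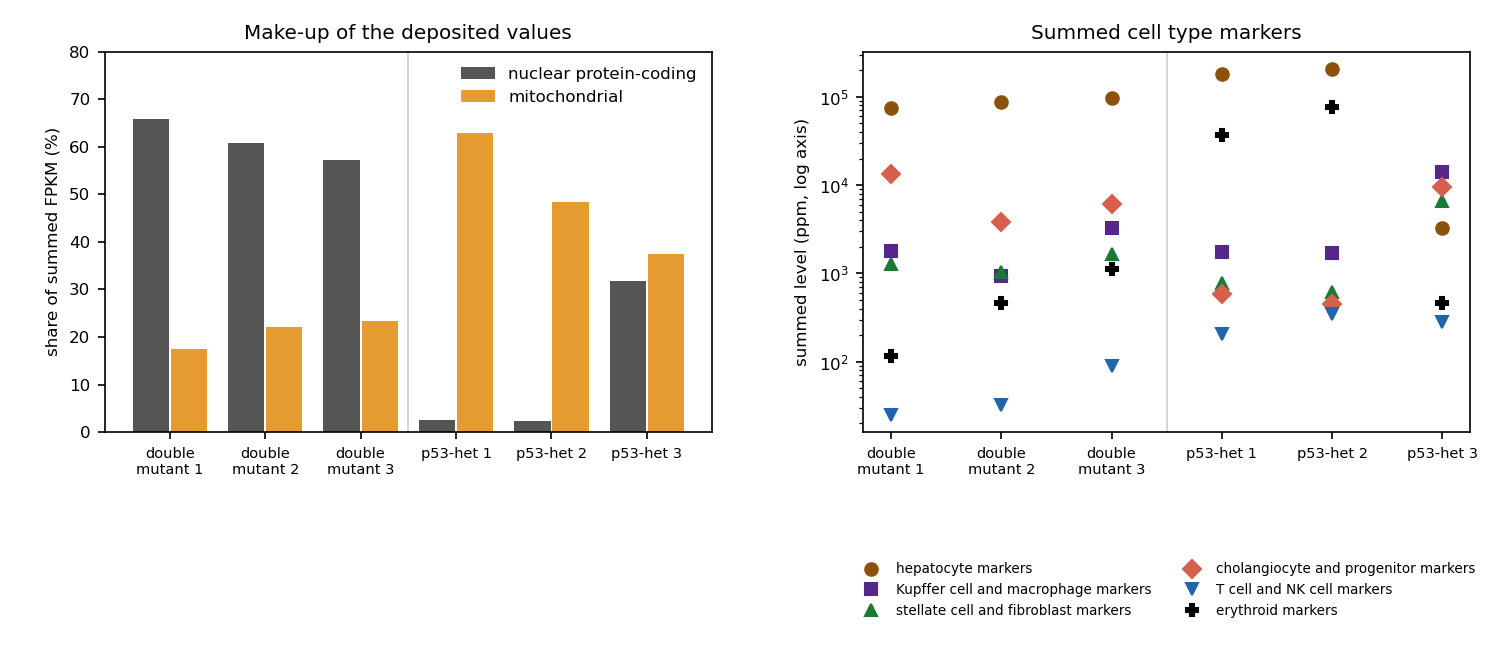
Makeup of each library, double mutant left and p53-heterozygous right: bars give the percent of summed FPKM in nuclear coding and in mitochondrial genes, and points the summed ppm (log axis) of cell type markers. p53-heterozygous libraries 1 and 2 hold 2.61% and 2.37% nuclear coding signal, and library 3 has a summed hepatocyte level of 3231 ppm.

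With limma across 15279 genes on log2(ppm + 1), 16 genes rose and 3 fell in the double mutant at an adjusted p under 0.05. These 19 genes are 0.124% of those tested, 0.105% higher and 0.0196% lower. Differences are on this log2 scale, which understates the change of low genes. Over all genes tested the median difference was 0.17, at 0.43 against p53-heterozygous libraries 1 and 2 and -0.44 against library 3. A further view is given by the 2329 genes (15.2%) whose 3 double mutant values all lay above the 3 p53-heterozygous values and the 1775 (11.6%) whose values all lay below. At an unadjusted p under 0.05 there were 2757 genes (18.0%), of which 10.5% of all tested were higher and 7.54% lower. The groups did not overlap for any of the 19 genes that passed, and 8 of them were listed at 0 in all 3 p53-heterozygous libraries. All 19 also passed when p53-heterozygous library 3 was left out, where 3468 of the 15279 genes passed. The 19 were picked from these same libraries, so this is no independent check of them. None of the 19 passed in all 6 fits that left out 1 library in turn; each passed in 1 to 4 of them. Of the genes named beyond these 19, many were chosen after their values were seen.

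The genes that rose include a lysosomal regulator of mTORC1, a surface enzyme of glutathione breakdown, a secreted Wnt inhibitor, an antimicrobial peptide, and genes of cell structure. Rragd (ENSMUSG00000028278, chromosome 4) encodes RagD, the GTPase that with RagA or RagB recruits mTORC1 to the lysosome, and is itself a target of the MiT/TFE factors. Rragd stood at 131, 183 and 121 ppm in the double mutant, against 5.93, 2.95 and 4.41 ppm in p53-heterozygous livers. The lowest double mutant value was thus far above the highest p53-heterozygous one. The difference in log2(ppm + 1) was 4.76 (SE 0.39, limma adjusted p = 0.013), and group means were 145 ± 33.2 ppm and 4.43 ± 1.49 ppm (SD, n = 3 each). Across the alternative settings the adjusted p of Rragd ran between 0.00187 and 0.181.

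Ggt1 (ENSMUSG00000006345), the gamma-glutamyl transferase that cleaves extracellular glutathione and marks altered foci in rat liver, had 107, 96.3 and 48.0 ppm in the double mutant and 0.429, 0 and 1.57 ppm in p53-heterozygous livers (5.70, SE 0.52, limma adjusted p = 0.0186). It was at or near 0 in every p53-heterozygous library. Wif1 (ENSMUSG00000020218), a secreted inhibitor of Wnt ligands, had 117, 69.0 and 21.3 ppm in the double mutant and was listed at 0 in all p53-heterozygous libraries (limma adjusted p = 0.0391). Every double mutant library thus held Wif1, at levels that varied widely.

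Bex2 (ENSMUSG00000042750), an X-linked adaptor protein studied mostly in neurons and tumours, was measured at 128, 119 and 295 ppm in the double mutant and listed at 0 in the p53-heterozygous libraries (limma adjusted p = 0.00368). Defb1 (ENSMUSG00000044748) encodes the epithelial antimicrobial peptide beta-defensin 1. It reached 119.9, 88.7 and 169 ppm in the double mutant and was also listed at 0 in every p53-heterozygous library (limma adjusted p = 0.00368). A single Defb1 read was worth 2.95 and 4.20 ppm in p53-heterozygous libraries 1 and 2, and a Bex2 read 2.85 and 4.06 ppm, so the double mutant levels of both lie well above the level that 1 read would give there.

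Rnase1 (ENSMUSG00000035896), a secreted ribonuclease abundant in pancreas, stood at 395, 230.5 and 277 ppm in the double mutant and at 0, 6.33 and 1.67 ppm in p53-heterozygous livers (6.77, SE 0.72, limma adjusted p = 0.0345). Sycn, a protein of pancreatic secretory granules, read 11.3, 10.5 and 9.10 ppm in the double mutant and was listed at 0 elsewhere (limma adjusted p = 0.0473). One Sycn read is worth 4.63 and 6.59 ppm in p53-heterozygous libraries 1 and 2, so the double mutant level is worth only a few reads there, while 1 read is 0.629 ppm in library 3. Sycn also overlaps Samd4b on the opposite strand. Of 12 acinar and islet genes of the pancreas, only Cela1 was tested. Pnlip, Cpa1, Cpb1 and Amy2a5 were listed at 0 in all 6 libraries.

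Of genes of cell structure and signalling that rose, Myh14, a nonmuscle myosin heavy chain, had 57.7, 44.6 and 71.5 ppm in the double mutant and 1.97, 0.851 and 1.61 ppm in p53-heterozygous livers (4.57, SE 0.39, limma adjusted p = 0.0144). Clec2h, a C-type lectin-related surface protein, had 47.4, 61.1 and 18.9 ppm in the double mutant, against 0, 0 and 0.439 ppm in p53-heterozygous livers (5.12, SE 0.54, limma adjusted p = 0.0345). Il22ra1, the receptor chain by which epithelial cells sense interleukin 22, read 10.8, 11 and 12.4 ppm in the double mutant and was listed at 0 in all p53-heterozygous libraries (limma adjusted p = 0.0391). For none of them did any p53-heterozygous library reach 2 ppm.

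Several of the 19 are gene models that overlap another model, and the authors' counting could split reads between them. Adnp, a chromatin-bound homeobox protein, read 37.8, 32.9 and 28.0 ppm in the double mutant and was listed at 0 in p53-heterozygous libraries (limma adjusted p = 0.0113). The same-strand model Gm20716, which overlaps it, read 14.1, 0 and 0 ppm in the double mutant, against 19.5, 18.1 and 39.6 ppm in p53-heterozygous livers. Their sums were 51.9, 32.9 and 28.0 ppm in the double mutant, against 19.5, 18.1 and 39.6 ppm in p53-heterozygous livers, and so overlap between groups. Rnf149, a ubiquitin ligase, had 59.5, 78.5 and 63.0 ppm in the double mutant, against 8.84, 7.35 and 8.90 ppm in p53-heterozygous livers (2.85, SE 0.34, limma adjusted p = 0.0477). Summed with the overlapping Gm15832, the levels were 62.9, 89.3 and 66.6 ppm in the double mutant, against 47.8, 36.9 and 85.3 ppm in p53-heterozygous livers, which also overlap. Raver1, an RNA-binding splicing regulator, had 47.1, 28.3 and 38.3 ppm in the double mutant, against 2.18, 1.57 and 1.41 ppm in p53-heterozygous livers (3.82, SE 0.38, limma adjusted p = 0.0282). Its sum with Gm38431 was 48.3, 30.6 and 39.4 ppm in the double mutant, against 23.8, 14.1 and 5.72 ppm in p53-heterozygous livers, which remains apart. Gm44805 had 743, 1543 and 373 ppm in the double mutant and 0, 0 and 0.308 ppm in p53-heterozygous livers (9.43, SE 0.56, limma adjusted p = 0.00368), and overlaps Apoc2 and Apoc4. Apoc2 itself read 472, 812 and 197 ppm in the double mutant, against 2043, 2676 and 150.1 ppm in p53-heterozygous livers, and the sums of Gm44805 and Apoc2 overlap between groups. Gm6977, a processed pseudogene, read 58.0, 48.6 and 73.1 ppm in the double mutant (limma adjusted p = 0.00368). ENSMUSG00000113525, for which no annotation was matched, read 103, 95.3 and 22.6 ppm (limma adjusted p = 0.0345). Both were listed at 0 in every p53-heterozygous library.

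The 3 genes that fell are predicted transcripts without a gene name. The rescaling multiplied p53-heterozygous libraries 1 and 2 by 36.4 and 39.3, library 3 by 4.72 and the double mutant by 3.40 to 3.53. The size of each fall therefore depends on the rescaling. Gm12940, a processed transcript, read 6.90, 3.69 and 6.14 ppm in the double mutant, against 214, 252 and 129 ppm in p53-heterozygous livers (-4.90, SE 0.43, limma adjusted p = 0.0144). Gm17066 read 11.6, 7.42 and 12.4 ppm in the double mutant, against 120.1, 105 and 142 ppm in p53-heterozygous livers (-3.45, SE 0.37, limma adjusted p = 0.0345). On FPKM as deposited, its values in p53-heterozygous libraries 1 and 2 lay within the double mutant range. Its limma adjusted p reached 0.362 among the alternative settings. Gm13868, a processed pseudogene, read 0, 0.458 and 0.481 ppm in the double mutant, against 70.5, 34.4 and 37.2 ppm in p53-heterozygous livers (-5.15, SE 0.45, limma adjusted p = 0.0144). A single Gm13868 read was worth 8.76 and 12.5 ppm in p53-heterozygous libraries 1 and 2, and 1.19 ppm in library 3. Its values in libraries 1 and 2 thus rest on few reads. In the order given, the 3 genes overlap Sfpq, Rbm26 and Trim44 on the same strand. Gm12940 summed with Sfpq, and Gm17066 with Rbm26, stayed wholly below in the double mutant. Summed with Trim44, Gm13868 gave 83.1, 58.3 and 60.6 ppm in the double mutant and 106, 74.5 and 90.3 ppm in p53-heterozygous livers, which overlap. Next in order of p in this direction was Nfix, a nuclear factor I transcription factor, at 3.15, 2.92 and 2.30 ppm in the double mutant, against 21.5, 25.5 and 29.3 ppm in p53-heterozygous livers (-2.80, SE 0.36, limma adjusted p = 0.0536), which did not pass. After it came Gm44135, at 0.0601, 0 and 0.628 ppm in the double mutant, against 13.9, 11.9 and 11 ppm in p53-heterozygous livers (-3.46, limma adjusted p = 0.0536). Both stood wholly below in the double mutant.

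**Figure D2:**
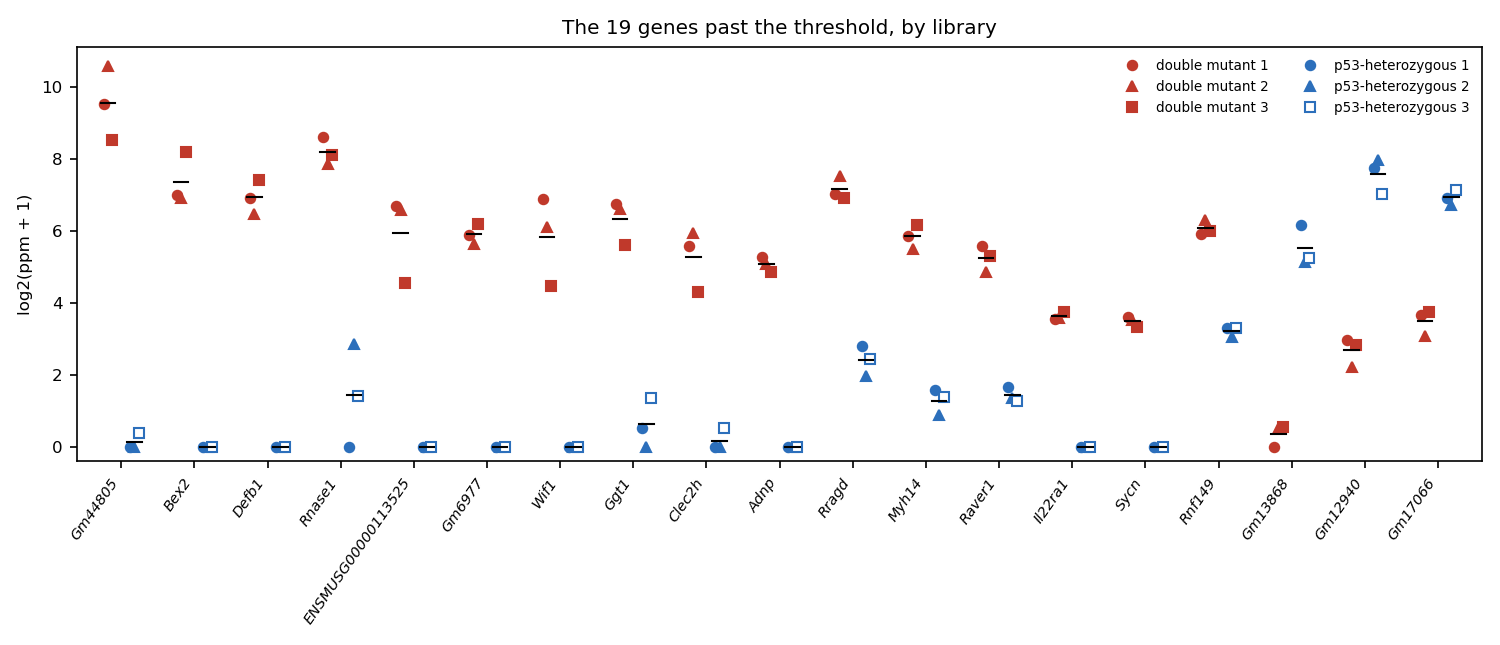
Levels of the 19 genes that passed, as log2(ppm + 1) per library, double mutant left and p53-heterozygous right; lines are means of the log2 values and the open square is p53-heterozygous library 3. The groups do not overlap for any of the 19; 16 lie higher in the double mutant and 3 lower.

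Tsc1, the deleted gene, stood at 3.61, 4.01 and 3.66 ppm in the double mutant and 5.34, 9.93 and 4.68 ppm in p53-heterozygous livers. All double mutant values lay below, but the difference of -0.62 (SE 0.44) did not pass (limma adjusted p = 0.513), and without rescaling, on FPKM as deposited, it was positive. The whole-gene value does not isolate the floxed exons, and cells other than hepatocytes keep Tsc1, so this is no check of the deletion. Trp53 had 33.0, 20.6 and 24.4 ppm in the double mutant, against 19.3, 19.4 and 72.8 ppm in p53-heterozygous livers (limma adjusted p = 0.87). Tsc2 had 30.0, 30.1 and 26.2 ppm in the double mutant, against 25.4, 14.7 and 26.0 ppm in p53-heterozygous livers (limma adjusted p = 0.619). Neither passed. Of 30 tested genes of mTORC1 and the TSC complex, 21 had a positive difference, 8 lay wholly above and 3 wholly below, against 15.2% and 11.6% of all genes. Their median difference was 0.30, against 0.17 over all genes tested, at 0.67 against libraries 1 and 2 and -0.01 against library 3. Of 11 tested Rag, folliculin and MiT/TFE genes only Rragd passed, against 0.105% of all genes in this direction. Of these 11, 5 were positive, 2 lay wholly above and 0 wholly below, against 15.2% and 11.6% of all genes. Their median was -0.14, against 0.17 over all genes tested. Flcn, which restrains the MiT/TFE factors, had 33.9, 34.9 and 38.9 ppm in the double mutant, against 29.1, 67.4 and 31.7 ppm in p53-heterozygous livers. Its groups overlap.

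Rragc, the paralog of Rragd, and the sestrins Sesn2 and Sesn3, which restrain mTORC1 when amino acids are short, lay higher without passing. Rragc stood at 78.5, 97.3 and 94.2 ppm in the double mutant, against 28.0, 17.0 and 59.2 ppm in p53-heterozygous livers (1.52, limma adjusted p = 0.192). Sesn3 stood at 28.6, 25.0 and 23.6 ppm in the double mutant, against 2.73, 3.05 and 5.42 ppm in p53-heterozygous livers (2.54, limma adjusted p = 0.0764). Sesn2 stood at 51.8, 22.7 and 43.3 ppm in the double mutant, against 8.35, 14.4 and 10.1 ppm in p53-heterozygous livers (1.71, limma adjusted p = 0.123). None of these 3 passed, although their groups did not overlap.

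Lysosome and autophagy genes, which MiT/TFE factors drive, lay mostly higher in the double mutant. Of 38 tested, 37 had a positive difference and 16 (42.1%) lay wholly above, against 15.2% of all genes, with none wholly below; none passed in limma, and 14 had an unadjusted p under 0.05, against 10.5% of all genes in this direction. Their median difference was 1.14, at 1.57 against p53-heterozygous libraries 1 and 2 and 0.33 against library 3. Ctsl, the protease cathepsin L, stood at 1032, 839 and 805 ppm in the double mutant, against 135, 45.7 and 84.3 ppm in p53-heterozygous livers (3.45, limma adjusted p = 0.079). Lamp1, a lysosomal membrane protein, stood at 1816, 2878 and 1686 ppm in the double mutant, against 386, 151 and 529 ppm in p53-heterozygous livers (2.71, limma adjusted p = 0.117). Sqstm1, the autophagy receptor p62, had 1208, 1202 and 1305 ppm in the double mutant, against 236, 251 and 324 ppm in p53-heterozygous livers (2.20, limma adjusted p = 0.104). For each of these, every double mutant library lay well above every p53-heterozygous one. Neu1, a lysosomal sialidase, was also apart, at 118, 156 and 249.9 ppm in the double mutant, against 30.9, 34.3 and 28.6 ppm in p53-heterozygous livers (2.38, limma adjusted p = 0.0925).

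The promoters of these genes were searched for CACGTG, the core of the sites that MiT/TFE factors bind, which reads the same on both strands. The window was 250 bases before to 50 after the annotated start. It held CACGTG in 10 of 29 lysosome genes with a promoter in the table (34.5%), against 2187 of 27025 genes in all (8.09%), 5 of 25 genes of the ATF4 list (20%) and 1 of 39 of the NRF2 list. This share, like those of the other motifs below, rests on list membership alone and uses no level from these libraries. It does not measure factor activity in these livers. The stretches shown, from RefSeq on build GRCm38.p6, were chosen because Lamp1 and Rragc stood apart between the groups and hold the motif, which is in capitals. The Lamp1 stretch, on the plus strand at chr8:13159061-13159160, holds it 4 times, and the Rragc stretch at chr4:123917274-123917373, also plus, once.
Lamp1: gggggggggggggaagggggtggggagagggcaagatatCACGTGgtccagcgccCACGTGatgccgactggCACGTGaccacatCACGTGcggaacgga
Rragc: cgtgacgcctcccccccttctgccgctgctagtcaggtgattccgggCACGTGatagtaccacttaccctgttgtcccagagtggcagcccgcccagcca

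Genes of the NRF2 response, by which cells make glutathione and detoxify oxidants, lay higher in the double mutant against both kinds of p53-heterozygous library. Of 45 tested, 43 had a positive difference and 26 (57.8%) lay wholly above, none below, against 15.2% and 11.6% of all genes. None passed in limma, and 24 had an unadjusted p under 0.05, against 10.5% of all genes in this direction. Their median difference was 2.21, at 1.65 against p53-heterozygous libraries 1 and 2 and 2.73 against library 3, above 0 against both. Without library 3, 22 of 45 passed as higher in limma, against 16.7% of all genes, and without libraries 1 and 2, 28 of 45 passed, against 8.99%. The fit without libraries 1 and 2 has a lone p53-heterozygous library, which is assumed to vary like the double mutant.

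Glutathione synthesis genes stood apart between the groups. Gclm, the modifier subunit of the first enzyme of glutathione synthesis, stood at 81.7, 122 and 133 ppm in the double mutant, against 13.1, 32.9 and 24.6 ppm in p53-heterozygous livers (2.27, limma adjusted p = 0.0992). Its catalytic partner Gclc had 429.6, 899 and 973 ppm in the double mutant, against 175, 183 and 81.2 ppm in p53-heterozygous livers (2.38, limma adjusted p = 0.117). Slc7a11, which imports cystine, had 8.54, 40.7 and 40.8 ppm in the double mutant, against 1.80, 0.794 and 0.567 ppm in p53-heterozygous livers (3.68, limma adjusted p = 0.0926). In all 3 the groups were apart. Nqo1, a quinone reductase, had 150.3, 173 and 171 ppm in the double mutant, against 30.1, 43.2 and 3.54 ppm in p53-heterozygous livers (3.17, limma adjusted p = 0.129). Ephx1, an epoxide hydrolase, had 1496, 1869 and 1481 ppm in the double mutant, against 305, 136 and 85.7 ppm in p53-heterozygous livers (3.39, limma adjusted p = 0.0926). Txnrd1, thioredoxin reductase, had 109, 114 and 94.5 ppm in the double mutant, against 10.3, 29.3 and 1.98 ppm in p53-heterozygous livers (3.40, limma adjusted p = 0.111). p53-heterozygous library 3 lay lowest for Nqo1, Ephx1 and Txnrd1. Prdx1, a peroxiredoxin, had 928, 918 and 1424 ppm in the double mutant, against 239, 177 and 287 ppm in p53-heterozygous livers (2.21, limma adjusted p = 0.11).

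TGACNNNGC, the core of the antioxidant response element, was found on either strand in 13 of 39 NRF2 genes with a promoter (33.3%), against 14% of all 27025. It was also found in 8 of 29 lysosome genes (27.6%) and 7 of 25 ATF4 genes (28%). The promoter stretches of Gclm, at chr3:122245377-122245476, and Prdx1, at chr4:116685420-116685519, both on the plus strand of GRCm38.p6, are shown because both genes stood apart between the groups. The motif is in capitals and lies on the opposite strand in both.
Gclm: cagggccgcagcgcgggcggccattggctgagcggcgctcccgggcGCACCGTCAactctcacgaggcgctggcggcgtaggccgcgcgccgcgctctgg
Prdx1: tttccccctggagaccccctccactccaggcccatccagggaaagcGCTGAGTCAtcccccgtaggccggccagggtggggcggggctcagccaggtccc

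Some efflux pumps and bile acid genes stood apart between the groups, although none of those named passed. Abcc4 (ENSMUSG00000032849), a pump of bile acids and cyclic nucleotides at the outer face of hepatocytes, stood at 131, 189 and 123 ppm in the double mutant, against 7.33, 4.14 and 21.0 ppm in p53-heterozygous livers (3.90, SE 0.59, limma adjusted p = 0.0764). Its groups were well apart and it missed the threshold, and its adjusted p ran between 0.00232 and 0.338 over the alternatives. Abcc3 stood at 249, 252 and 125 ppm in the double mutant, against 52.6, 62.1 and 12.3 ppm in p53-heterozygous livers (2.49, limma adjusted p = 0.139). Cyp39a1, an oxysterol hydroxylase of bile acid synthesis, stood at 203, 69.4 and 72.5 ppm in the double mutant, against 7.50, 13.6 and 6.55 ppm in p53-heterozygous livers (3.38, limma adjusted p = 0.079). For the list of 34 bile acid genes the median was 1.38, but it was -0.05 against p53-heterozygous libraries 1 and 2 and 3.61 against library 3, whose hepatocyte markers are low.

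Amino acid stress genes under the factor ATF4 were mostly positive. Of 31 tested, 26 had a positive difference, 10 lay wholly above and 1 below, against 15.2% and 11.6% of all genes. None passed in limma, and 9 had an unadjusted p under 0.05 in the higher direction and 1 in the lower, against 10.5% and 7.54% of all genes. Their median was 1.31, at 1.67 against libraries 1 and 2 and 0.33 against library 3. Fgf21, a hormone that hepatocytes release in nutrient stress, stood at 173, 79.4 and 27.3 ppm in the double mutant, against 0, 0 and 1.02 ppm in p53-heterozygous livers (5.86, SE 0.71, limma adjusted p = 0.0536). Trib3, a pseudokinase that binds Akt, stood at 292, 59.1 and 96.5 ppm in the double mutant, against 13.2, 20.9 and 10.3 ppm in p53-heterozygous livers (2.98, limma adjusted p = 0.102). Asns, asparagine synthetase, stood at 136, 41.2 and 77.8 ppm in the double mutant, against 9.83, 4.14 and 30.8 ppm in p53-heterozygous livers (2.67, limma adjusted p = 0.141). In each of these the first double mutant library was highest. Atf4 RNA itself, at 715, 386 and 373 ppm in the double mutant, against 339, 248 and 879 ppm in p53-heterozygous livers, overlapped. Cebpb, a partner of ATF4, lay below, at 44.2, 27.0 and 35.2 ppm in the double mutant, against 123, 129 and 128 ppm in p53-heterozygous livers (-1.83, SE 0.38, limma adjusted p = 0.0993), and without rescaling, on FPKM as deposited, its difference was positive.

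TGATGCAA, the composite element that ATF4 binds with C/EBP factors, was found on either strand in 6 of 25 ATF4 genes with a promoter (24%), against 1.03% of all genes. It was found in 0 of 29 lysosome genes and 1 of 39 NRF2 genes. As for the other motifs, these shares rest on list membership, not on levels in these libraries. No match of 1 of the 3 motifs overlapped a match of another in the 6 stretches printed. The Slc7a11 stretch, at chr3:50443617-50443716, and the Fgf21 stretch, at chr7:45615576-45615675, both on the minus strand of GRCm38.p6 and read 5′ to 3′ along the gene, are shown because both genes stood apart between the groups. The capitals mark the motif, which the Slc7a11 stretch holds once on each strand and the Fgf21 stretch once, on the opposite strand.
Slc7a11: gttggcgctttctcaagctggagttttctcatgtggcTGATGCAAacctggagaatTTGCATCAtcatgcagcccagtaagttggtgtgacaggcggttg
Fgf21: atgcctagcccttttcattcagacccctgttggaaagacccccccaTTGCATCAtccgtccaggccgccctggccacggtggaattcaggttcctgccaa

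Fetal and liver tumour markers were mostly positive. Of 36 tested, 32 had a positive difference and 16 lay wholly above, against 15.2% of all genes. Bex2 and Rnase1 passed in limma, 2 of 36 against 0.105% of all genes. The list was chosen with earlier results of these data known, so this share is no independent check. In the higher direction 19 had an unadjusted p under 0.05, against 10.5% of all genes, and 1 in the lower, against 7.54%. Their median was 2.37, or 2.35 without genes listed at 0 throughout a group, at 2.78 against libraries 1 and 2 and 1.06 against library 3. Spink1, a trypsin inhibitor made by several tumours, stood at 1189, 354 and 1388 ppm in the double mutant, against 0, 26.0 and 2.68 ppm in p53-heterozygous livers (7.50, SE 1.20, limma adjusted p = 0.079). H19, the imprinted fetal RNA, stood at 490.1, 2458 and 3150.5 ppm in the double mutant, against 29.3, 78.9 and 5.69 ppm in p53-heterozygous livers (5.95, SE 1.09, limma adjusted p = 0.0926). Its imprinted neighbour Igf2 stood at 51.0, 89.7 and 1224 ppm in the double mutant, against 6.54, 4.05 and 1.34 ppm in p53-heterozygous livers (5.33, limma adjusted p = 0.104), with double mutant library 3 far above the others. Afp and Gpc3, classic markers of liver cancer, varied within the double mutant. Afp stood at 57.7, 3.75 and 6944 ppm in the double mutant, against 10.9, 7.73 and 2.75 ppm in p53-heterozygous livers. Gpc3 stood at 275, 2.67 and 356 ppm in the double mutant, against 7.28, 30.0 and 0.627 ppm in p53-heterozygous livers. Both overlapped, the second double mutant library lying among the p53-heterozygous values.

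Cholangiocyte and progenitor markers lay higher against p53-heterozygous libraries 1 and 2 and near library 3. All 18 tested had a positive difference and 6 lay wholly above, against 15.2% of all genes. None passed in limma, and 7 had an unadjusted p under 0.05, against 10.5% of all genes in this direction. The median was 1.96, at 2.80 against libraries 1 and 2 and 0.34 against library 3. Summed, the 18 gave 13360, 3856 and 6092 ppm in the double mutant, against 592, 450 and 9494 ppm in p53-heterozygous livers, so p53-heterozygous library 3 lay among the double mutant libraries. Krt23, a keratin of injured liver epithelium, stood at 41.7, 19.9 and 25.8 ppm in the double mutant, against 0, 0 and 1.61 ppm in p53-heterozygous livers (4.39, SE 0.56, limma adjusted p = 0.0536), and was apart from every control. Spp1 (osteopontin) stood at 12109, 3328 and 5053 ppm in the double mutant, against 507, 356 and 7740.5 ppm in p53-heterozygous livers. Krt19 stood at 116, 47.4 and 171 ppm in the double mutant, against 6.34, 11.2 and 988 ppm in p53-heterozygous livers. Both overlapped through library 3. Spp1 made up most of each sum. Krt19 is also a mesothelial marker, and Msln, another, stood at 1145 ppm in p53-heterozygous library 3 and at most at 5.93 ppm in every other library. The sums thus do not show that library 3 matched the double mutant in cholangiocyte or progenitor content.

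Several zinc and iron transport genes stood apart between the groups, and none passed. Slc39a5 (ENSMUSG00000039878), a zinc importer of the epithelial surface, stood at 22.3, 21.6 and 26.3 ppm in the double mutant, against 0, 1.62 and 0 ppm in p53-heterozygous livers (4.14, SE 0.52, limma adjusted p = 0.0536). It overlaps Ankrd52 on the opposite strand, and whether the counting used strand is not stated. Slc39a4, another zinc importer, stood at 258, 366 and 454 ppm in the double mutant, against 76.0, 49.9 and 127 ppm in p53-heterozygous livers (2.14, limma adjusted p = 0.114). Slc39a8, which imports zinc and manganese, stood at 13.8, 15.2 and 13.0 ppm in the double mutant, against 1.43, 2.53 and 2.56 ppm in p53-heterozygous livers (2.26, limma adjusted p = 0.0895). All 3 importers were thus apart from every p53-heterozygous library. The zinc-binding metallothionein Mt1 lay below, at 367, 305 and 603 ppm in the double mutant, against 894, 1276 and 669 ppm in p53-heterozygous livers (-1.16, limma adjusted p = 0.341), and was higher on FPKM as deposited. Of the iron genes, Slc11a2, the importer DMT1, stood at 29.8, 74.1 and 34.7 ppm in the double mutant, against 1.80, 5.64 and 7.71 ppm in p53-heterozygous livers (3.00, limma adjusted p = 0.093). The iron-storing heavy ferritin Fth1 stood at 16159, 18090.0 and 19318 ppm in the double mutant, against 6216, 5035 and 9945 ppm in p53-heterozygous livers (1.39, limma adjusted p = 0.407). Of the 22 tested zinc genes 8 lay wholly above and 1 wholly below, against 15.2% and 11.6% of all genes. Their median was 0.64, at 0.99 against libraries 1 and 2 and -0.07 against library 3. Of the 22 iron genes 9 lay wholly above and 1 wholly below, with a median of 1.13, at 0.88 against libraries 1 and 2 and 1.71 against library 3.

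Hepatocyte function genes differed in sign between the p53-heterozygous libraries they were set against. Over 59 tested plasma protein genes the median was 1.37, but -0.07 against libraries 1 and 2 and 4.58 against library 3. The 73 cytochrome P450 and conjugation genes gave 0.74, or -0.62 and 3.87, and the 42 gluconeogenesis and urea cycle genes 1.16, or -0.12 and 4.19. Alb, the main plasma protein, stood at 35229, 30398 and 41451 ppm in the double mutant, against 80579, 93250.0 and 705 ppm in p53-heterozygous livers. Without library 3 its difference was -1.29 (limma adjusted p = 0.0357), and without libraries 1 and 2 it was 5.65 (limma adjusted p = 0.00935), so the sign turns. Fatty acid synthesis and lipid droplet genes had 13 of 34 wholly above, against 15.2% of all genes. Their medians were 0.73, 0.62 and 1.61 against all 3, libraries 1 and 2, and library 3. Over all genes tested these were 0.17, 0.43 and -0.44. Of the 2 most abundant members, Scd1 turned sign, at -1.65 against libraries 1 and 2 and 3.83 against library 3. Hsd17b13 did not, at 2.81 and 6.53. Gldc, which cleaves glycine in mitochondria and is not a lipid gene, was apart from all controls. It stood at 242, 411 and 243 ppm in the double mutant, against 25.1, 25.0 and 13.0 ppm in p53-heterozygous livers (3.78, limma adjusted p = 0.0536).

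**Figure D3:**
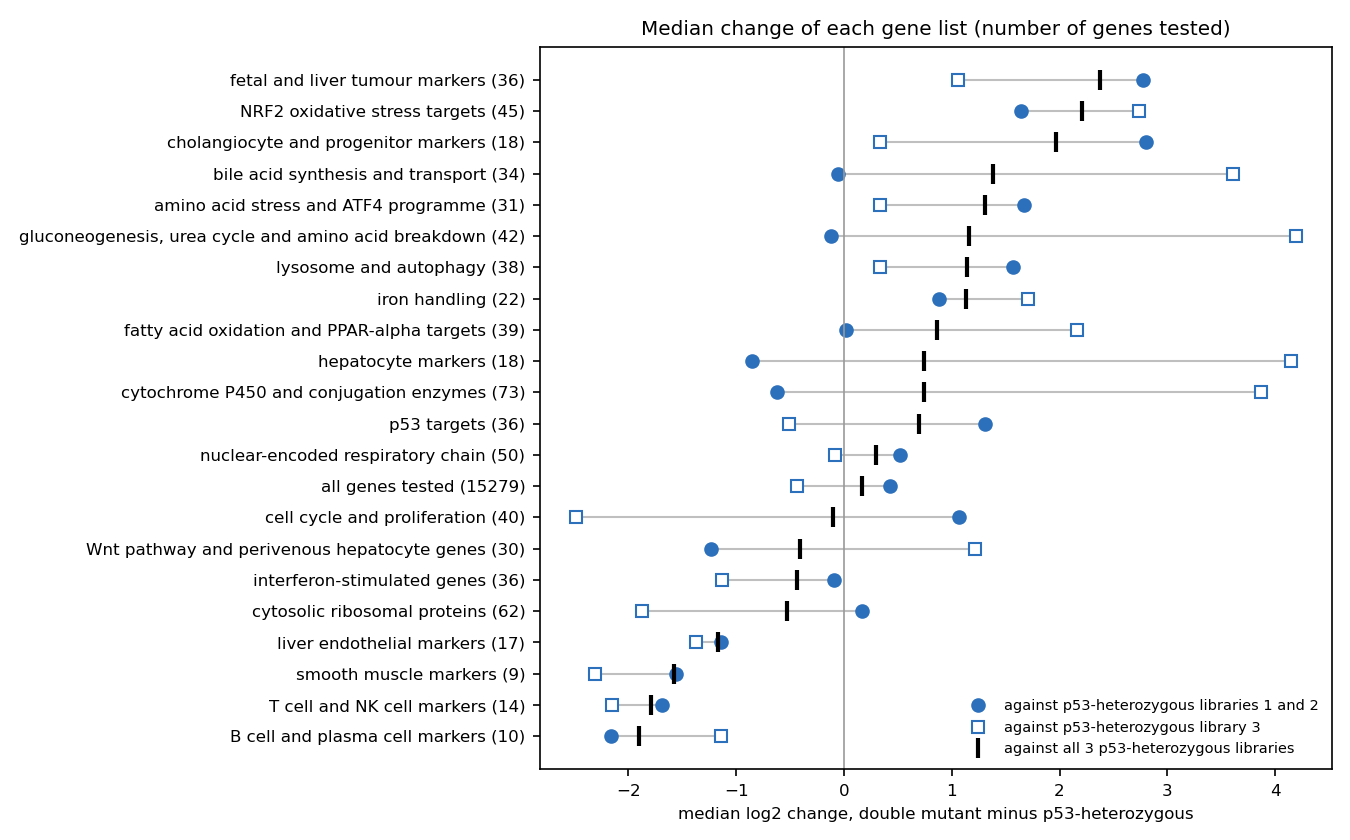
Median difference in log2(ppm + 1), double mutant minus p53-heterozygous, for all genes tested and 21 gene lists, against p53-heterozygous libraries 1 and 2, library 3 and all 3, with the number of tested genes in brackets. The NRF2 list is at 1.65 and 2.73 and hepatocyte markers at -0.86 and 4.14; on FPKM as deposited the lists below 0 turn positive except smooth muscle (-0.04) and T and NK markers (-0.50).

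Wnt and perivenous hepatocyte genes were mixed, with 11 of 30 positive, 2 wholly above and 6 wholly below, against 15.2% and 11.6% of all genes. The median was -0.40, or -1.24 against libraries 1 and 2 and 1.22 against library 3, and on FPKM as deposited 1.93. Wif1, described above, lay higher (5.83) and was the 1 member that passed, against 0.105% of all genes in this direction. The 2 most abundant tested members, Cyp2e1 and Rgn, overlapped between the groups, at 0.67 and -0.92. Lgr5, a Wnt-potentiating receptor, stood at 0.0462, 0.314 and 0.132 ppm in the double mutant, against 1.39, 3.79 and 1.49 ppm in p53-heterozygous livers (-1.40, limma adjusted p = 0.163). Tbx3 stood at 0.660, 2.18 and 1.64 ppm in the double mutant, against 7.78, 6.73 and 5.02 ppm in p53-heterozygous livers (-1.62, limma adjusted p = 0.148). Both genes, chosen after their values were seen, lay wholly below in the double mutant. A single Lgr5 read was worth 0.251 and 0.357 ppm in p53-heterozygous libraries 1 and 2. Among 36 tested p53 targets, 27 were positive, 9 lay wholly above and 3 wholly below, against 15.2% and 11.6% of all genes. Their median was 0.70, or 1.31 against libraries 1 and 2 and -0.51 against library 3. Cdkn1a, the cell cycle inhibitor p21, stood at 226, 32.8 and 159 ppm in the double mutant, against 9.62, 7.63 and 38.4 ppm in p53-heterozygous livers (2.80, limma adjusted p = 0.169), and overlapped. Of 40 tested proliferation genes, 1 lay wholly above and 2 below, and their median was -0.10, at 1.07 against libraries 1 and 2 and -2.49 against library 3. Mki67 stood at 8.24, 3.14 and 5.18 ppm in the double mutant, against 1.86, 3.48 and 89.8 ppm in p53-heterozygous livers, high in p53-heterozygous library 3 alone. Igf1, the growth hormone effector, stood at 32.8, 57.5 and 34.0 ppm in the double mutant, against 413, 307 and 61.3 ppm in p53-heterozygous livers (-2.28, limma adjusted p = 0.188), a difference that is positive on FPKM as deposited.

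Markers of lymphocytes and smooth muscle lay below in the double mutant after the rescaling. Of 14 tested T and NK cell markers, 0 were positive and 10 lay wholly below, against 11.6% of all genes; none passed in limma, and 10 had an unadjusted p under 0.05, against 7.54% of all genes in this direction. The median was -1.79, or -1.69 and -2.15 against libraries 1 and 2 and against library 3, and -0.50 on FPKM as deposited. Trbc1, the constant part of the T cell receptor beta chain, stood at 5.42, 3.85 and 9.67 ppm in the double mutant, against 61.8, 61.0 and 34.3 ppm in p53-heterozygous livers (-2.90, SE 0.46, limma adjusted p = 0.079). Summed, the T and NK markers gave 25.0, 32.8 and 89.0 ppm in the double mutant, against 206, 350 and 285 ppm in p53-heterozygous livers. Of 10 B and plasma cell markers 6 lay wholly below (median -1.90, at -2.16 against libraries 1 and 2 and -1.14 against library 3), and the sign turned to 0.52 on FPKM as deposited. Igkc stood at 249, 301 and 557 ppm in the double mutant, against 1265, 2714 and 1999.5 ppm in p53-heterozygous livers (-2.45, limma adjusted p = 0.121). Of 9 smooth muscle markers 7 lay wholly below (median -1.57, and -0.04 on FPKM as deposited), and Myl9 stood at 4.43, 17.1 and 21.9 ppm in the double mutant, against 110.3, 60.0 and 94.4 ppm in p53-heterozygous livers (-2.72, limma adjusted p = 0.107). Liver endothelial markers had a median of -1.17 with 5 of 17 wholly below, and 0.32 on FPKM as deposited.

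Interferon-stimulated genes were mixed. Of 36 tested, 10 were positive, 1 lay wholly above and 8 wholly below, against 15.2% and 11.6% of all genes. The median was -0.43, at -0.09 against libraries 1 and 2 and -1.13 against library 3. Over all genes tested the medians against them were 0.43 and -0.44, in that order. On FPKM as deposited the list median was 1.07. Irf7, an interferon-responsive factor, stood at 6.77, 10.1 and 22.1 ppm in the double mutant, against 79.2, 67.0 and 50.4 ppm in p53-heterozygous livers (-2.38, limma adjusted p = 0.0993). Usp18, which damps interferon signalling, stood the other way, at 63.5, 39.6 and 73.6 ppm in the double mutant, against 6.38, 10.6 and 22.7 ppm in p53-heterozygous livers (2.20, limma adjusted p = 0.112). Kupffer cell and macrophage markers had a median of -0.94, at -0.08 against libraries 1 and 2 and -2.41 against library 3. It was 0.84 on FPKM as deposited. The members did not move together. Clec4f and Cd5l were at -3.98 and -3.86 against libraries 1 and 2, and at 1.72 and 2.59 against library 3. The more abundant Lyz2, Ctss and C1qa were at 0.54, 0.11 and 0.33 against libraries 1 and 2. Against library 3 these were at -2.66, -4.09 and -3.63. Erythroid markers summed to 115, 457 and 1137 ppm in the double mutant and 36790, 77550 and 468 ppm in p53-heterozygous livers.

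The nuclear-encoded respiratory chain split. Of 50 tested genes 19 lay wholly above and 8 wholly below, against 15.2% and 11.6% of all genes. The median was 0.30, at 0.52 against libraries 1 and 2 and -0.08 against library 3. Atp5b, a subunit of the ATP synthase, stood at 651, 1029 and 519 ppm in the double mutant, against 189.8, 231 and 163 ppm in p53-heterozygous livers (1.86, limma adjusted p = 0.133). Ndufs8, of complex I, stood at 232, 219 and 218 ppm in the double mutant, against 644, 609.9 and 522 ppm in p53-heterozygous livers (-1.40, limma adjusted p = 0.177), a difference that is positive on FPKM as deposited. The 15 mitochondrially encoded genes all lay wholly below, with a median of -4.67. It was -5.94 against libraries 1 and 2, -1.88 against library 3, -2.23 on FPKM as deposited and -0.44 with quantile normalization. Mitochondrial genes hold the largest shares of signal in p53-heterozygous libraries 1 and 2, as given above, and the part of library makeup in this result was not tested. Cytosolic ribosomal protein genes had a median of -0.53, at 0.17 against libraries 1 and 2, -1.88 against library 3 and 1.84 on FPKM as deposited.

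**Figure D4:**
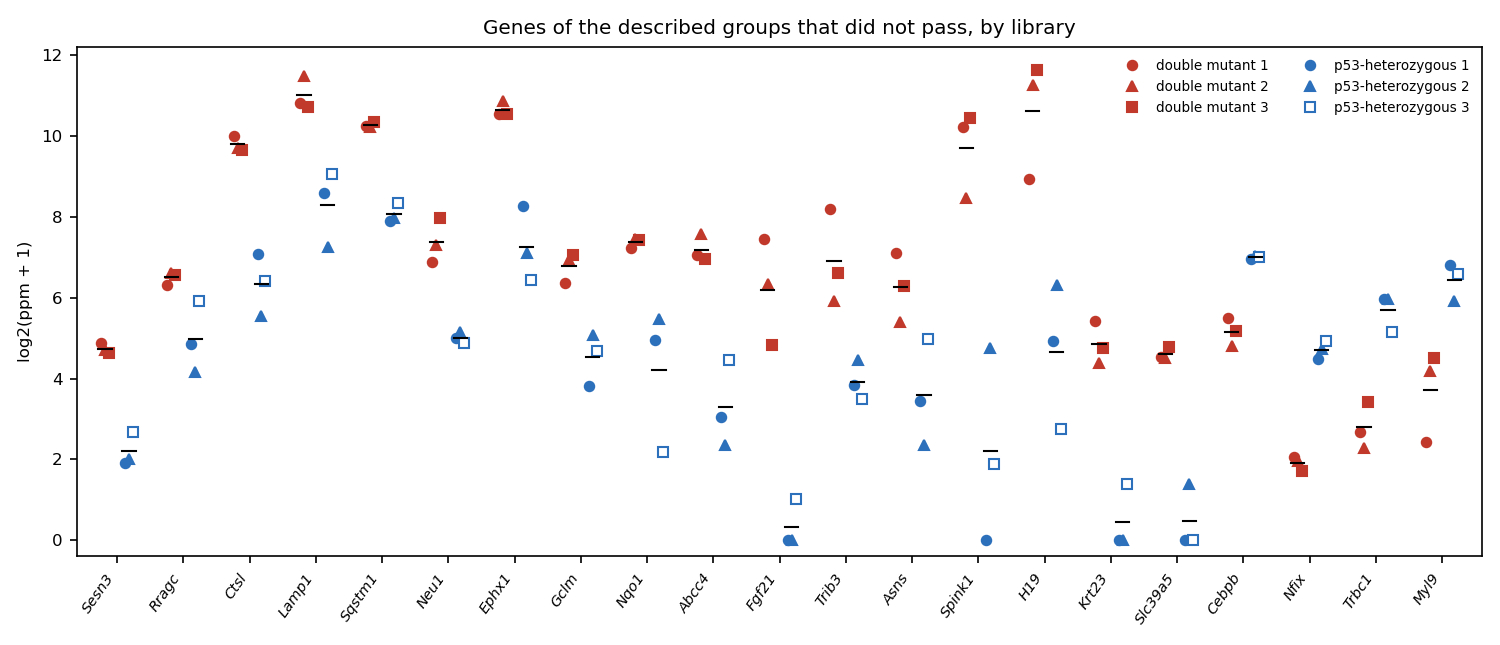
Levels of 21 genes of the lists, as log2(ppm + 1) per library, double mutant left and p53-heterozygous right; the open square is p53-heterozygous library 3. None passed the threshold; Cebpb, Nfix, Trbc1 and Myl9 lie below in the double mutant (on FPKM as deposited Cebpb turns positive, and Nfix falls under the filter), and the other 17 lie above without overlap.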

How the data were processed

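RNA-seq tables of 6 mouse liver libraries of 320 days were used, 3 per genotype, as labelled. The authors deposited 1 FPKM value per gene and library, a unit read from the values. Reads were processed with cutadapt, STAR and StringTie on mm9, per the submitters' processing notes, with versions not given in the sources used here. Of 52550 IDs, 52403 matched GENCODE M21, which annotates a later build and was used for names, gene classes, lengths and overlaps, not for printed coordinates. From the deposited FPKM, levels were rescaled per library to 1000000 over nuclear protein-coding genes. limma 3.58.1 (R 4.3.3) with trend and robust moderation was fitted on log2(ppm + 1), for genes at 1 ppm or more in at least 3 of 6 libraries, two-sided, Benjamini-Hochberg adjusted over all genes tested, threshold 0.05, with no block. Named genes were 7 preset genes, those that passed by size of change, the lowest p in a direction with few calls, and per list the called or most abundant members; others were chosen after their values were seen. The members and lists were chosen with earlier results of these data known. The fit was tested on simulated data. Promoter windows (RefSeq, GRCm38.p6) were searched on both strands. Alternatives changed the pseudocount, filter, rescaling, moderation, weights, block and libraries. Read numbers were estimated from the smallest value steps and carry counting error. No count test was possible without counts.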

Additional observations from a re-analysis of the deposited data

How the results depend on the processing

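The count of genes that passed depended on the processing. It was 19 (16 higher, 3 lower); it was 12 (10 higher) with a pseudocount of 0.1, 9 (7) with no filter, 32 (25 higher, 7 lower) with a 5 ppm filter, 1331 (1304, 27) on FPKM as deposited, where the median over all genes moved to 1.46, 39 (28, 11) with median-ratio rescaling, 67 (36, 31) with quantile normalization, 36 (27, 9) without the 100 highest genes in the total, and 3081 (2207, 874) with array weights. With a pseudocount of 5, 5 genes were lower. Of the 19 called genes, higher made up 84.2%, against 98.0% on FPKM as deposited, 71.8% with median-ratio and 53.7% with quantile. Leaving out 1 library gave 0 to 3468 genes (0 to 2552 higher, 0 to 916 lower), with the largest value without p53-heterozygous replicate 3; 1654 and 2502 had an unadjusted p under 0.05 where the count was 0. Without p53-heterozygous libraries 1 and 2 it was 3697 (1374, 2323; median -0.44), and without library 3 with the 100 highest left out of the total, an alternative added after seeing the data, 2569 (1441, 1128). Reversed values were, without libraries 1 and 2, Cdk4 -1.89, Cyp27a1 2.31, Rgn 3.66, Krt19 -3.32 and Cd5l 2.59; with 1 library left out in turn, Apoa1 ran from -1.21 to 1.68, Alb from -1.29 to 2.23 and Serpina1c from -1.66 to 1.22, each lowest without p53-heterozygous replicate 3; and in the added alternative, Hpd -1.70, Apoa1 -1.54, Apoa2 -1.70, Alb -1.62 and Serpina1c -1.98. The cause was not tested. With 3 libraries per group, the same-number correlations (-0.158, 0.212 and 0.184) cannot decide whether replicate numbers pair the samples. With the replicate block 15 genes passed (13 higher, 2 lower). With nuclear protein-coding genes alone, also added after seeing the data, 25 genes passed, and the mitochondrially encoded list had no value. Depth limits p53-heterozygous libraries 1 and 2, where 1 read in a gene of 1 kilobase is worth 2.57 and 3.66 ppm.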

Other observations

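Clock genes and heat shock genes were also read. Of 20 tested clock genes 9 were positive, 2 lay wholly above and 5 wholly below, against 15.2% and 11.6% of all genes. Their median was -0.02. Of 27 tested immediate early and heat shock genes 20 were positive, 5 lay wholly above and 3 wholly below, with a median of 0.44. Among the most abundant members, Nampt, Bhlhe40 and Hspa8 overlapped and Hspd1 lay wholly above. The genes below were chosen after their values were seen. Per1 stood at 15.2, 10.7 and 13.7 ppm in the double mutant, against 18.6, 28.9 and 37.4 ppm in p53-heterozygous livers (-1.01, limma adjusted p = 0.246). Per2, its paralog in the clock, stood at 3.73, 8.54 and 7.91 ppm in the double mutant, against 15.7, 25.1 and 15.0 ppm in p53-heterozygous livers (-1.37, limma adjusted p = 0.177). Neither passed, both were positive on FPKM as deposited, and the hour of collection is not given in the labels used here. Hspa1b, a heat shock chaperone nearly identical to Hspa1a, stood at 20.6, 167 and 28.8 ppm in the double mutant, against 6.05, 2.36 and 13.0 ppm in p53-heterozygous livers (2.78, limma adjusted p = 0.173). Mup3, a urinary protein of mouse liver that rises with growth hormone pulses, stood at 8.29, 53.9 and 10.3 ppm in the double mutant, against 13563, 1566 and 80.1 ppm in p53-heterozygous livers (-6.06, limma adjusted p = 0.15). Xist, transcribed from the silent X of female mice, stood at 88.0, 0.0354 and 100.3 ppm in the double mutant, against 0.809, 271 and 0.857 ppm in p53-heterozygous livers. It was near 0 in 1 double mutant library and in 2 p53-heterozygous libraries, and the labels give no sex.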
